A study of Mus musculus with 6 samples.

Results

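Homeobox and T-box transcription factors tell embryonic cells where they lie in the body, and many stay switched on in the connective tissue cells that descend from those positions. The set described here holds every gene of the deposited table whose symbol is a numbered Hoxa, Hoxb, Hoxc, Hoxd, Irx, Prrx, Alx, Tbx, Pax, Lhx, Meis, Pbx or Barx name, or that of Six2 and its numbered relatives. They are 84 of 31401 genes, taken by name under a rule that was set with earlier results of these data known. RNA sequencing was done on primary osteoblasts, bone-forming cells grown out of the calvaria (the flat bones of the skull roof) of wild-type C57BL/6 mice at 3 days of age. All cultures were kept in osteogenic induction medium for 6 days, and 3 samples received 10 μM ZM while 3 control samples did not. ZM stands for ZM-306416, a kinase inhibitor that acts on VEGF receptors and the EGF receptor. All samples carry 1 batch label. Whether a group's 3 samples came from separate dishes or animals is not in the labels, and each p-value therefore reflects spread among these libraries alone, some of which may be technical.

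The 4 Hox clusters are known to be read out in order along the trunk and limbs, and the mesenchyme of the front of the head, which builds the skull roof from neural crest and cranial mesoderm, is known for leaving them silent. Meis and Pbx proteins bind DNA beside Hox proteins as cofactors and also act without them. Prrx, Alx and sine oculis-related factors are known for building the head and limb skeleton, and Tbx factors, which bind DNA through a T-box in place of a homeobox, for limb, heart and skeletal patterning.

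Library totals ran from 42721326 to 69867931 counts. Of genes that mark the labelled cell type, Col1a1 stood at 1326 and 1364 FPKM (control and ZM means; FPKM is the read count scaled by gene length and library total), and Runx2 at 3.68 and 4.67 FPKM. Sp7 was at 0.396 and 0.744 FPKM, under 1 FPKM in both groups, and Alpl at 0.630 and 7.82 FPKM. The late markers Ibsp (0.0671 and 0.116 FPKM) and Bglap (0.189 and 0.103 FPKM) were low. Genes of other cell types were also present. The summed level of 6 macrophage markers was 17730.1 to 18549.6 CPM (counts scaled to an effective library size) in control and 9346 to 10359.6 CPM in ZM samples. Most of this sum was Lyz2, with 694740 counts in control library 1, where Adgre1, the next highest, had 21636. The sum of 5 osteoclast markers was 448 to 482 CPM in control and 925 to 948 CPM in ZM samples. Most of it was Ctsk, with 17265 counts in control library 1 and 34535 in ZM library 1. Mmp9, the next highest, had 1026 and 13559 counts in these libraries, and Acp5 524 and 6797. Of the muscle markers Myod1 is not among the 31401 genes and Myf5 had at most 10 counts over all libraries. Skeletal actin, Acta1, was at 13.9 and 1.86 FPKM. The epithelial markers Krt5, Krt14 and Epcam also had at most 10 counts, while E-cadherin, Cdh1, was at 0.627 and 0.155 FPKM. In such mixed RNA, fewer cells of a type and less RNA per cell cannot be told apart.

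The set held both active and near-silent genes, with others at levels in between. A member was called expressed where its mean reached 1 FPKM in either group, low between 0.1 and 1 FPKM, and near the floor below that. By this measure 20 members were expressed, 13 were low and 51 were near the floor, or 23.8%, 15.5% and 60.7%, where all genes of the table gave 40.1%, 22.2% and 37.8%. The expressed genes included Prrx1 and Prrx2, Alx1 and Alx4, Six2, Six4 and Six5, Irx1, Irx2, Irx3 and Irx5, Tbx3, Tbx15 and Tbx18, Meis2 and Meis3, and Pbx2 and Pbx3. No Hox, Pax, Lhx or Barx gene of the table was expressed. Of the 51 members near the floor, 35 had at most 20 counts over the 6 libraries together, with a median of 11.

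**Figure D1:**
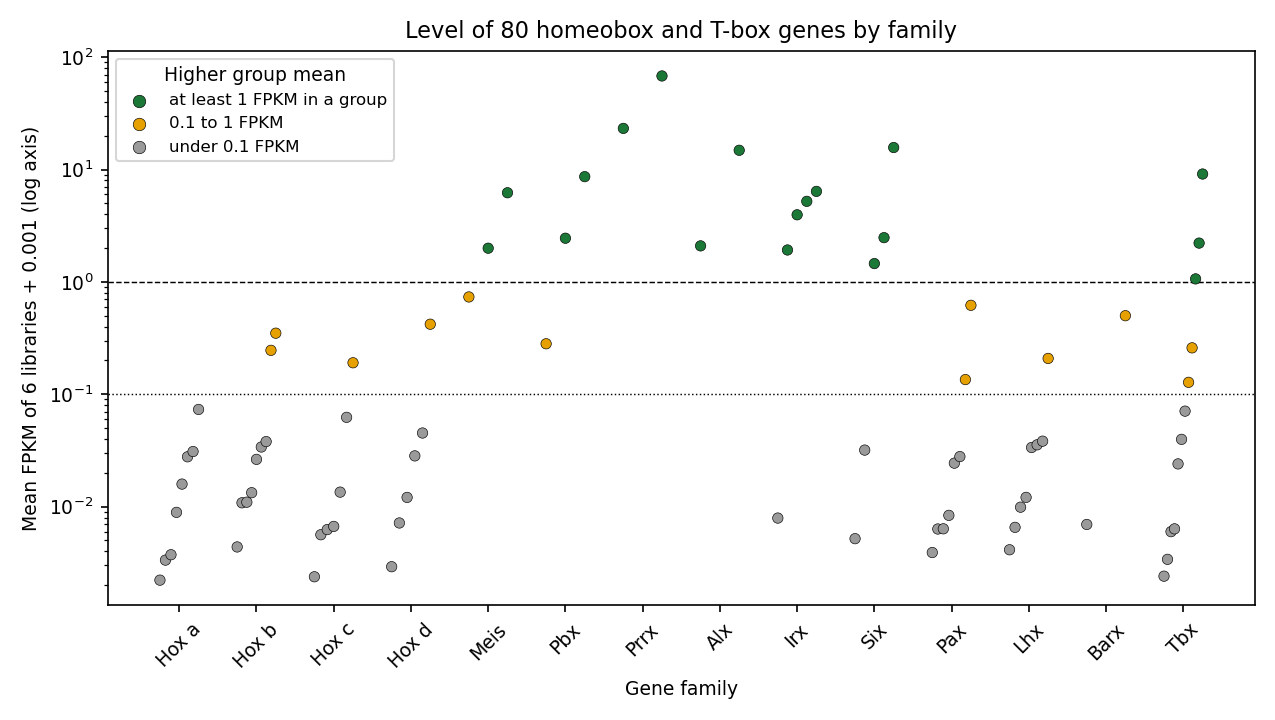
Mean level of 80 of the genes over the 6 libraries (FPKM + 0.001, log axis) by family, with 1 point a gene and dashed and dotted lines at 1 and 0.1 FPKM. The Prrx, Irx, Alx, Tbx, Pbx and Meis families and that of Six2 reach above 1 FPKM, while the 30 Hox genes plotted lie below it.

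The promoters of 5 members are given here, of which Hoxd8 was low and the others were expressed. The windows run from 250 bases before to 50 bases after a transcription start in RefSeq (GRCm38.p6). They are shown for the expressed members that differed with ZM and for the Hox gene of highest level. Only windows whose transcription start lay within 100 bases of the annotated gene start are included. Prrx1 is chr1:163313601-163313900 (minus strand), Six2 chr17:85688205-85688504 (minus), Six5 chr7:19094294-19094593 (plus), Tbx18 chr9:87731211-87731510 (minus) and Hoxd8 chr2:74704365-74704664 (plus). Capitals mark matches, on either strand, to any of 9 short motifs whose letters are spelled out after the sequences.
Prrx1: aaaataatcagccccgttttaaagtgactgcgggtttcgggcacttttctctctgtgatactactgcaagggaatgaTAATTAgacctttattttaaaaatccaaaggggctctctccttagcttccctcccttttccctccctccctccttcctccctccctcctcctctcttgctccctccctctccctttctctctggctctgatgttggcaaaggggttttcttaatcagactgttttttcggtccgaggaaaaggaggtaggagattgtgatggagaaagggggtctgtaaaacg
Six2: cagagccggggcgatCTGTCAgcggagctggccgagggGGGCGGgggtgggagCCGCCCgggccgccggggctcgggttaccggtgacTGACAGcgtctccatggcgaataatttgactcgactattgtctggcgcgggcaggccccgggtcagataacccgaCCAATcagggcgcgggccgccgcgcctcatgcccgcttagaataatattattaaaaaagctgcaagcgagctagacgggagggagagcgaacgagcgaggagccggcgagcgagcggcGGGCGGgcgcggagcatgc
Six5: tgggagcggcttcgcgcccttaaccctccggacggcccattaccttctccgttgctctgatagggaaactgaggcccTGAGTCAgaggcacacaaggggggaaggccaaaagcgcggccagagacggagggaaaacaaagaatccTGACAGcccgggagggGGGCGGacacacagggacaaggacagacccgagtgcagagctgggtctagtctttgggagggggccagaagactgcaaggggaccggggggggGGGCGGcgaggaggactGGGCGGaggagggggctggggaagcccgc
Tbx18: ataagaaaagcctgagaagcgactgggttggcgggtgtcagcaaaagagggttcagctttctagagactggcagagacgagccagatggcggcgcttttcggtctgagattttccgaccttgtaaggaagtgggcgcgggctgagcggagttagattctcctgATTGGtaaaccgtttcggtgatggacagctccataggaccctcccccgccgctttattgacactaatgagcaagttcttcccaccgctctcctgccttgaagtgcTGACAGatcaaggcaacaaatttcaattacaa
Hoxd8: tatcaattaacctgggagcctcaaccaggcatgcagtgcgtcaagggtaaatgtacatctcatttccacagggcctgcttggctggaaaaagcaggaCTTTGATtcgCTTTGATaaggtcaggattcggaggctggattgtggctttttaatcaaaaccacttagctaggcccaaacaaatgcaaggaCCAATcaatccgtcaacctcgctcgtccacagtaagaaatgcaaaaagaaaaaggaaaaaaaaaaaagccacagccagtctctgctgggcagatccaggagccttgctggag

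The window of Prrx1 holds a homeodomain core and no GC box, and that of Six2 holds 3 GC boxes, a CCAAT box and 2 Meis cores. Six5 has 3 GC boxes, a Meis core and an AP-1 site, Tbx18 a CCAAT box and a Meis core, and Hoxd8 a CCAAT box and 2 TCF/LEF cores. Of the 84 members 53 had a RefSeq window, and for 39 of these its transcription start lay within 500 bases of the annotated start. The 39 are the nearest window of each member, while all windows were taken without such a choice. Shares and CpG numbers below therefore compare unlike sets. The homeodomain core, bound by many homeobox proteins and searched as TAATTA, is found in 5.30% of all 32817 windows and in 5.13% of the 39. The Meis core, searched as TGACAG, is found in 19.2% of all windows and in 20.5% of those of the members. For the GC box, bound by Sp factors and searched as GGGCGG, the shares are 35.6% and 48.7%. For the CCAAT box, bound by NF-Y and searched as CCAAT, they are 37.4% and 51.3%. The AP-1 site, searched as TGANTCA, is in 7.81% of all windows and 7.69% of member windows. The TCF/LEF core of Wnt signalling, searched as ATCAAAG, is in 3.73% and 2.56%. The TATA box, searched as TATAAA, is in 13.6% and 10.3%. The CRE, the cyclic AMP element searched as TGACGTCA, is in 1.79% and 2.56%. The T-box core, searched as AGGTGTGA, is in 1.27% and 2.56%. No motif letters overlapped in the windows shown. The median number of CpG dinucleotides was 16 in the 8 windows of expressed members and 20 in the 24 windows of members near the floor, against 7 over all windows. Both classes lay above the median of all windows. A match to these letters is a description and not a binding site.

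Hox genes were close to silent in both groups. The highest, Hoxd8, had 47, 83 and 67 counts in control libraries 1 to 3 and 69, 60 and 48 in ZM libraries 1 to 3, or 0.409 and 0.430 FPKM. Hoxb4 (0.415 and 0.282 FPKM), Hoxb9 (0.234 and 0.256) and Hoxc13 (0.117 and 0.262) also had a group mean of 0.1 FPKM or more. Hoxd8 held 22.3% of all Hox counts, Hoxb4 17.9%, Hoxb9 12.4% and Hoxc13 8.90%. In each case the measured neighbours in the same cluster were lower.

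Of the Hox genes 26 were near the floor. Among 31 Hox genes 12 had a count in every library, and 14 had at most 10 counts over all 6. Hoxa13, Hoxa11, Hoxb13, Hoxc8, Hoxc12, Hoxd10 and Hoxd13 had counts in 1 library each. All Hox counts together were 218, 372 and 316 in control and 285, 251 and 232 in ZM samples, or 5.10, 5.32 and 5.08 CPM against 5.00, 5.61 and 4.76 CPM by library size, and these groups overlap. Counts of Hoxb3, Hoxd3 and Hoxd4 are uncertain, since 52.9%, 62.8% and 52.3% of their exon length overlaps other annotated genes. The symbols Hoxa6, Hoxa10, Hoxb1, Hoxc9, Hoxc10, Hoxd1, Hoxd11 and Hoxd12 are not among those of the 31401 genes.

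**Figure D2:**
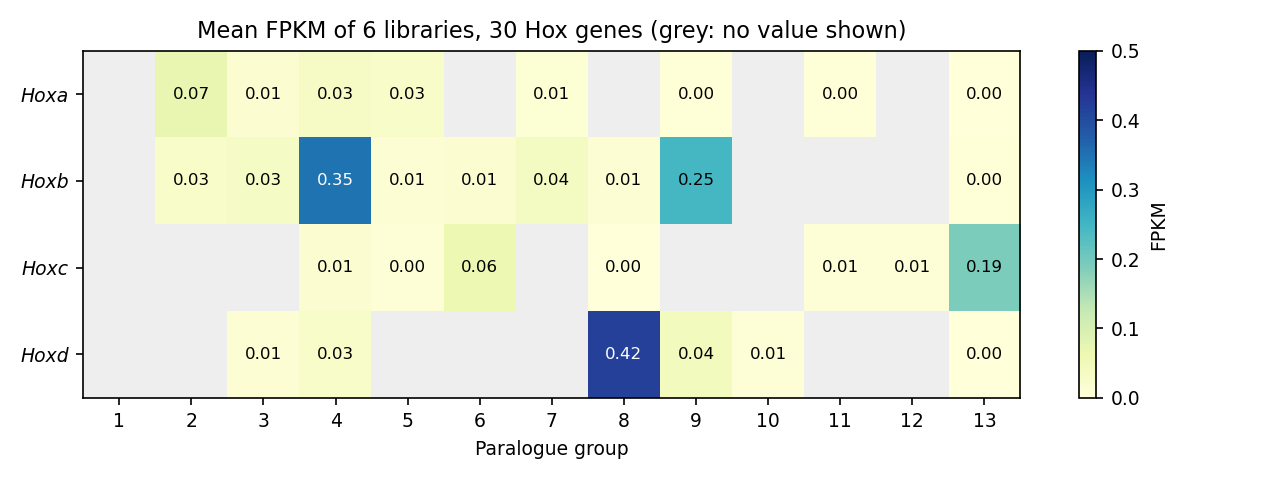
Mean FPKM over the 6 libraries of 30 Hox genes by cluster (rows) and paralogue group (columns), with grey where no value is shown. Hoxd8, Hoxb4, Hoxb9 and Hoxc13 stand out among genes near 0, and the highest cell is 0.42 FPKM.

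Transcripts of the Hox clusters outside the rule were low as well. Among 9 measured, 2 could be tested with edgeR. The antisense RNA Hotairm1 was at 0.481 and 0.497 FPKM (adjusted p = 0.99), and Hoxaas2 at 0.0811 and 0.0743 FPKM (adjusted p = 0.77), and neither passed.

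Among neighbours in the genome, active and near-silent members lay side by side. Six2, known from kidney and midface development, is 55.0 kb from Six3, a forebrain gene, and stood at 12.4 and 19.0 FPKM where Six3 had 0 to 2 counts per library. Tbx3 is 147.9 kb from Tbx5, a forelimb and heart gene with 0 to 2 counts per library. On chromosome 8 Irx3 and Irx5 were expressed and Irx6, a further 298 kb on, had 0 to 4 counts per library. Irx1 and Irx2, 665 kb apart on chromosome 13, were both expressed.

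The paired-related factors carried the highest levels. Prrx1, which marks mesenchymal progenitors of limb and skull including those of the sutures, stood at 58.7 ± 0.643 FPKM without and 77.3 ± 1.13 FPKM with ZM (SD, n = 3 each), and ranked 594 of all 31401 genes. It made up 33.3% of the summed FPKM of the set in control and 34.1% in ZM samples. Prrx2, its paralogue, followed at 23.2 ± 1.25 and 23.2 ± 1.19 FPKM. Further down were Six2 (12.4 ± 1.40), Alx4 (10.3 ± 0.453), Pbx2 (8.07) and Tbx15 (7.81) in control, where the samples of Pbx2 and Tbx15 overlap. In ZM samples Alx4 (19.4 ± 0.573) stood above Six2 (19.0 ± 1.55), and their samples overlap. Of the 19 neighbouring steps in the order of all expressed members, 9 overlapped in control and 6 in ZM samples.

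**Figure D3:**
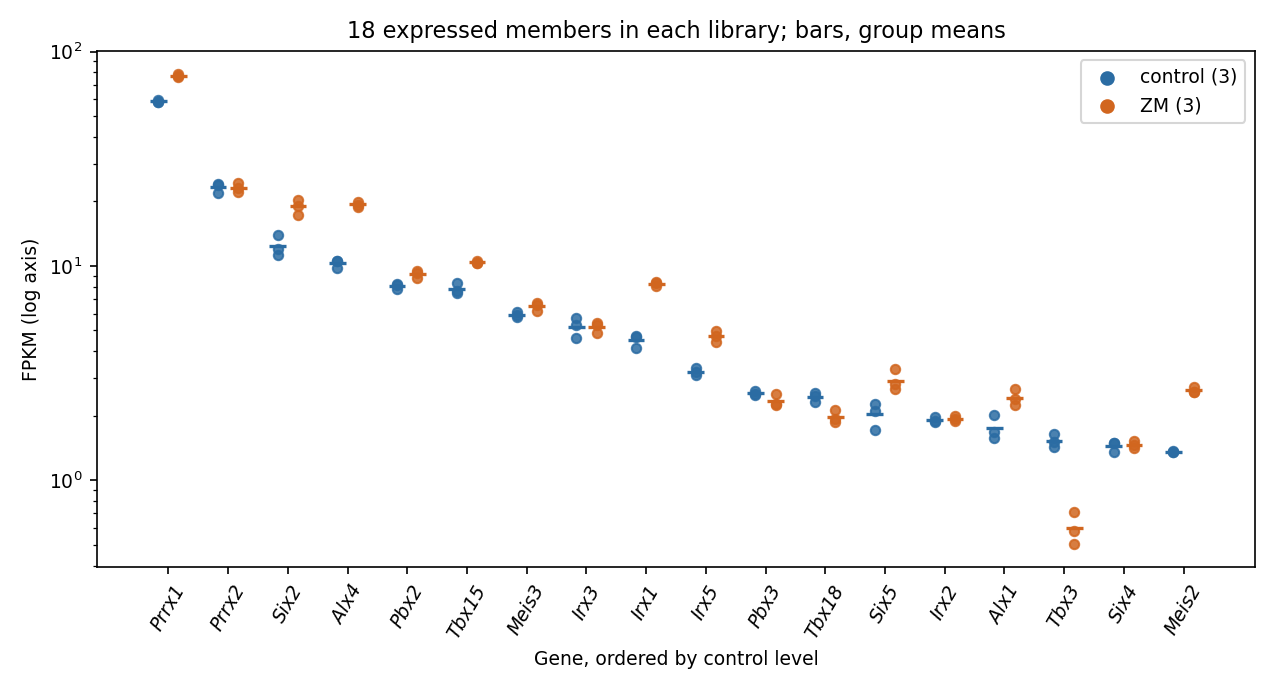
Level of 18 expressed genes in each library (FPKM, log axis), ordered by control mean, with 3 control and 3 ZM points a gene and bars at group means. Prrx1 is highest in all libraries, Alx4, Irx1 and Meis2 are higher in all ZM libraries, and Tbx3 is lower in them.

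Of the 84 members 37 passed edgeR's filter on low counts (20 expressed, 13 low and 4 near the floor) and could be tested between the groups. With ZM 13 of the 37 were higher and 5 lower at an adjusted p under 0.05, where 22.8% of all 17533 tested genes were higher and 22.4% lower, 45.3% in all. For the members these shares were 35.1%, 13.5% and 48.6%. The filter can keep a gene through the group where it is high, so these shares describe only the genes that passed. With scaling by library size alone 62.2% of all called genes were higher, against 50.4% here, and 14 members were higher and 4 lower. Of the 20 expressed members 10 were higher and 3 lower, or 50% and 15%, where all genes with a group mean of at least 1 FPKM gave 26.6% higher and 26.6% lower (53.2% in all). Called changes of at least 1.5-fold were found in 4 of the 20, or 20%, against a background of 11.4%. The median log2 fold change of the 20 was 0.23, and that of all tested genes was -0.00095. Of the 17 other tested members 5 were called, where genes with both group means under 1 FPKM gave 26.0%. The groups did not overlap in 24 of 37 members, where 54.2% of all tested genes did not.

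**Figure D4:**
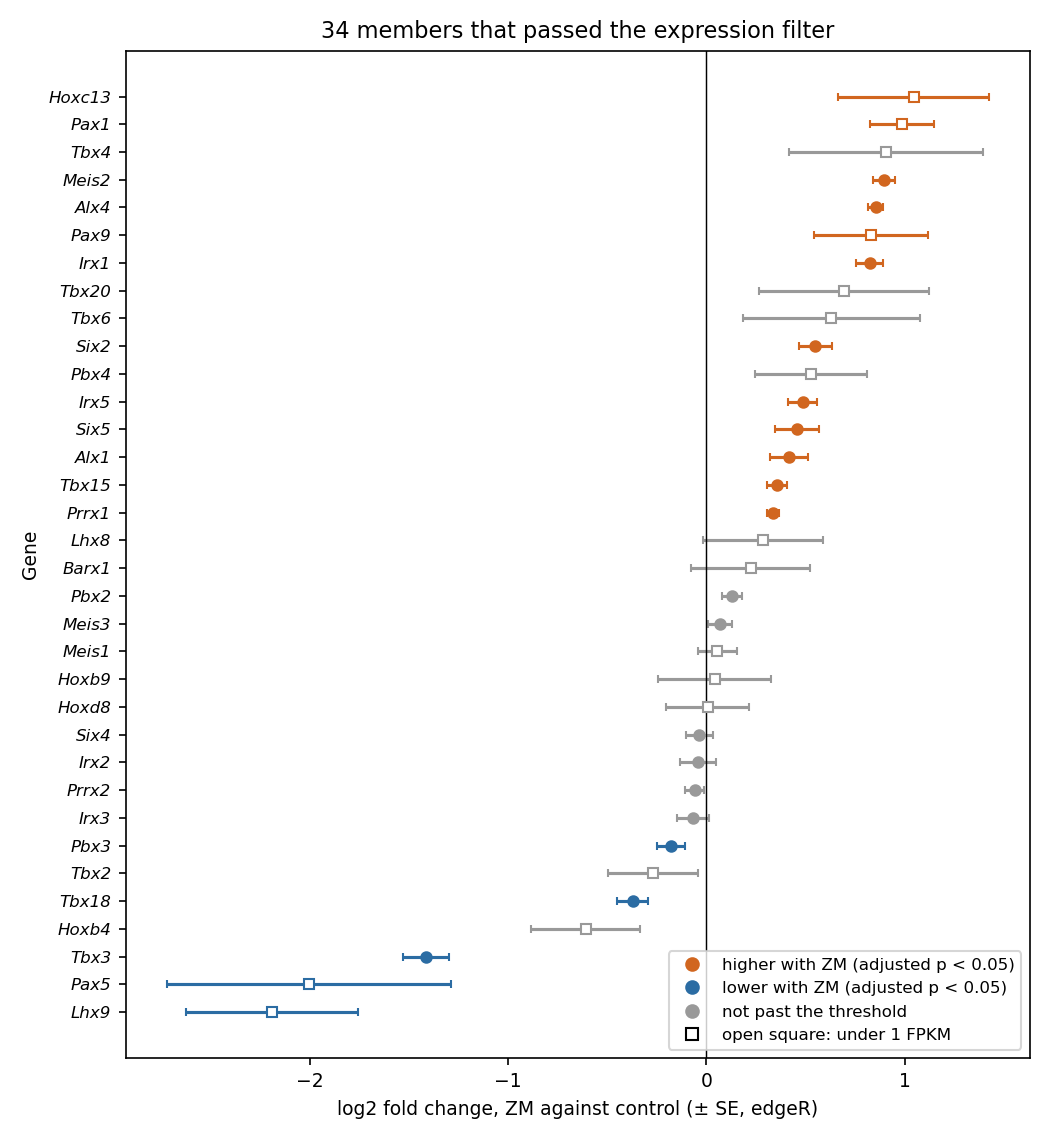
Log2 fold change of ZM against control with its standard error (edgeR) for 34 of the tested genes, coloured by call, with open squares for genes under 1 FPKM. The expressed genes plotted as higher lie between 0.34 and 0.90, and Tbx3 is at -1.42.

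Both expressed Alx genes rose. Alx4 (chromosome 2, 93642384 to 93681339, plus strand, mm10), a factor of the skull roof whose loss leaves openings in the human parietal bones, was at 75.7, 71.0 and 75.9 CPM in the control libraries and at 130.1, 134 and 138 CPM in the ZM libraries, each given as samples 1 to 3. The groups were far apart, with a log2 fold change of 0.85 ± 0.04 (SE; adjusted p = 3.2e-11), or 1.81-fold. Alx1, needed for the frontonasal skeleton, was at 11.8, 9.32 and 9.80 CPM in control and 12.6, 13.5 and 15 CPM in ZM samples. It rose by a log2 fold change of 0.42 ± 0.09 (adjusted p = 0.0018). Of the exon length of Alx1 4.22% overlaps a gene on the same strand.

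Of the Prrx pair, Prrx1 rose. Prrx1 (chromosome 1, 163245119 to 163313710, minus strand) was at 669, 665 and 656 CPM in control and 834, 829.6 and 850.4 CPM in ZM samples, so the groups did not overlap and the spread within each was small. Its log2 fold change was 0.34 ± 0.03 (adjusted p = 1.1e-07), or 1.26-fold. Prrx2 was at 48.1, 44.1 and 47.4 CPM and then 46.9, 42.5 and 44.4 CPM, overlapping groups with a log2 fold change of -0.06 ± 0.05 (adjusted p = 0.34).

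Of the sine oculis family, partners of Eya proteins in head, kidney and muscle development, Six2 and Six5 rose. Six2 (chromosome 17, 85684277 to 85688274, minus strand) was at 24.3, 26.1 and 30.1 CPM in control and 42.3, 36.1 and 39.7 CPM in ZM samples, a log2 fold change of 0.55 ± 0.08 (adjusted p = 3.2e-04). Six5 was at 5.26, 7.0 and 6.46 CPM in control and 9.67, 7.87 and 8.25 CPM in ZM samples (0.46 ± 0.11, adjusted p = 0.0033). Both were higher in each ZM sample than in any control sample. Six4 ran from 14.9 to 16.6 CPM over all libraries and its groups overlapped (-0.04 ± 0.07, adjusted p = 0.70).

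Of the 4 expressed Iroquois genes, known from heart, limb and neural patterning, 2 rose. Irx1 (chromosome 13, 71957921 to 71963723, minus strand) was at 12.4, 11.1 and 12.5 CPM in control and 21.2, 21.8 and 20.7 CPM in ZM samples, a log2 fold change of 0.82 ± 0.07 (adjusted p = 3.7e-08). Irx5 (chromosome 8, 92357625 to 92376286, plus strand) was at 9.90, 10.3 and 10.6 CPM and then 14.4, 13.6 and 15.2 CPM (0.49 ± 0.07, adjusted p = 3.7e-05). In both genes the ZM samples lay above all control samples. Irx3 was at 13, 15 and 16.1 CPM in control and 14.3, 14.7 and 13.2 CPM in ZM samples, with overlapping groups (-0.07 ± 0.08, adjusted p = 0.54). Irx2 ran from 6.07 to 6.60 CPM over all libraries (-0.04 ± 0.09, adjusted p = 0.75).

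Of the Meis cofactors Meis2 rose. Meis2 (chromosome 2, 115863064 to 116065839, minus strand), a cofactor known from limb and cranial neural crest, was at 16.7, 16.8 and 16.5 CPM in control and 30.5, 32.1 and 30.5 CPM in ZM samples. Its log2 fold change was 0.90 ± 0.06 (adjusted p = 9.8e-10), the largest rise among the expressed members. Meis3 was at 19.1, 18.8 and 19.8 CPM and then 20.3, 21 and 19.2 CPM (adjusted p = 0.38), and Meis1 ran from 6.82 to 8.51 CPM over all libraries (adjusted p = 0.68). Of the exon length of Meis1 18.3% overlaps other annotated genes.

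Pbx2 and Pbx3, partners of Hox and Meis proteins, moved little. Pbx2 was at 28.8, 31 and 30.3 CPM and then 33.8, 33.3 and 31.4 CPM (0.13 ± 0.05, adjusted p = 0.051). It passed the threshold without ZM sample 3 (adjusted p = 0.037), by library totals without TMM (adjusted p = 0.0061) and on log2(FPKM + 1) (adjusted p = 0.0093). Pbx3 was at 16.2, 15.7 and 15.8 CPM in control and 13.4, 13.6 and 15.1 CPM in ZM samples, a fall by 0.18 on the log2 scale (adjusted p = 0.046). Leaving out 1 sample ended the Pbx3 call in each case but ZM sample 3 (adjusted p from 0.073 to 0.17). It also ended with DESeq2 (adjusted p = 0.063), by library size alone (adjusted p = 0.18) and with no filter (adjusted p = 0.068). Pbx4 was low, at 0.226 and 0.335 FPKM (adjusted p = 0.14).

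The T-box genes went both ways. Tbx3 (chromosome 5, 119670669 to 119684724, plus strand), a repressor known from limb, breast and heart development, showed the largest change among the expressed members. It was at 9.62, 11.2 and 10.1 CPM in control and 3.74, 3.30 and 4.6 CPM in ZM samples, a log2 fold change of -1.42 ± 0.11 (adjusted p = 3.5e-08), or 2.67-fold lower. On log2(FPKM + 1), a scale that understates changes of low genes, the difference was -0.66. Every ZM sample was below every control sample, and the mean went from 1.53 to 0.597 FPKM. Its relative Tbx2 was low, at 1.03 ± 0.165 and 0.845 ± 0.0112 CPM (adjusted p = 0.36). Tbx18 (chromosome 9, 87702800 to 87731260, minus strand), known from the sinus node and the body segments, fell as well. It went from 11.2, 12 and 12.2 CPM in control to 9.79, 8.93 and 8.67 CPM in ZM samples (log2 fold change -0.37 ± 0.08, adjusted p = 9.8e-04), and 20.6% of its exon length overlaps a gene on the opposite strand. Without a stated strand setting, reads of the pair cannot be told apart.

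Tbx15 (chromosome 3, 99240381 to 99354259, plus strand), known from limb, skin and skeletal development, was the T-box gene of highest level and rose. It was at 29.0, 28.8 and 31.8 CPM in control and 38.9, 38.0 and 37.9 CPM in ZM samples (0.36 ± 0.05, adjusted p = 2.2e-05), with no overlap between the groups. Tbx6 was low, Tbx4 and Tbx20 were near the floor, and none of the 3 passed (adjusted p = 0.27, adjusted p = 0.15 and adjusted p = 0.21). Tbx4, a hindlimb gene, passed without control sample 3 (adjusted p = 0.046). Tbx1, Tbx5, Tbx10, Tbx21 and Tbx22 could not be tested, and Tbx10 had 4, 8 and 8 counts in control and 2, 0 and 2 in ZM samples.

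Within families, genes of like kind shifted against each other, which the scaling of libraries cannot move since each ratio is taken inside a library. The 6 pairs were chosen after their values were seen, so their ratios of FPKM values are a description with no test. The Irx1 to Irx2 ratio was 2.35 ± 0.144 in control libraries and 4.29 ± 0.185 with ZM (SD, n = 3 each). The Meis2 to Meis1 ratio was 1.93 ± 0.182 and 3.47 ± 0.295. That of Irx5 to Irx3 was 0.620 ± 0.0476 and 0.906 ± 0.103.

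For Prrx1 and Prrx2 it was 2.53 ± 0.126 and 3.34 ± 0.160. The widest shift was among T-box genes, where the Tbx15 to Tbx3 ratio was 5.34, 4.53 and 5.55 in control and 18.4, 20.4 and 14.6 in ZM samples. The Tbx15 to Tbx18 ratio was 3.19 ± 0.149 and 5.29 ± 0.264. In all 6 pairs each ZM ratio lay above each control ratio. The gene called higher with ZM was placed over its relative in each pair, so the direction followed from that choice.

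**Figure D5:**
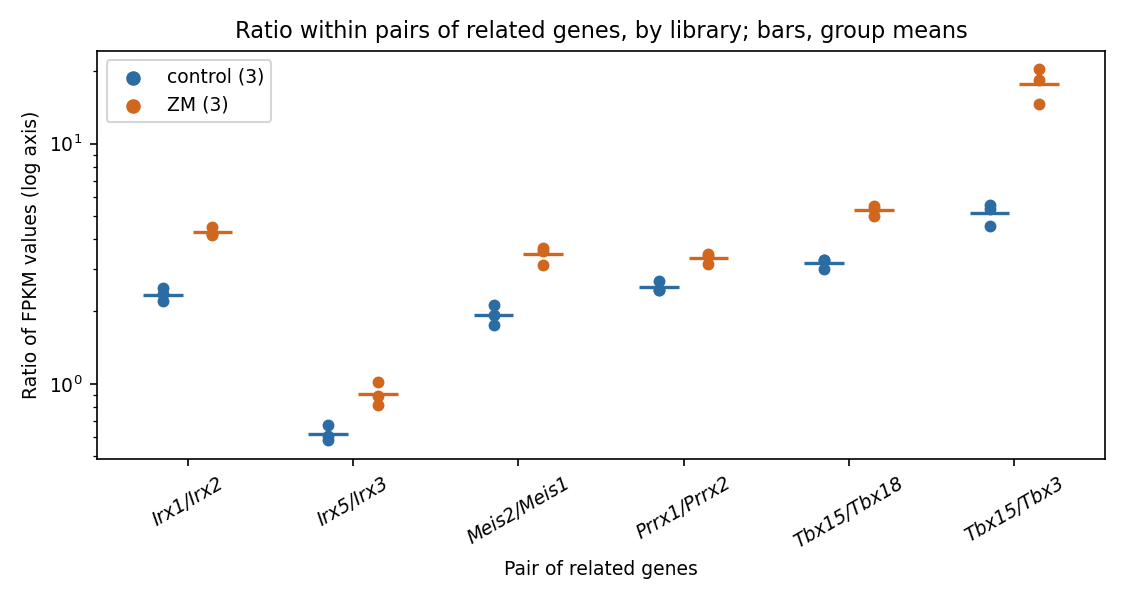
Ratio of FPKM values within 6 pairs of related genes in each library (log axis), with 3 control and 3 ZM points a pair and bars at group means. Each ZM ratio lies above the control ratios of its pair, by 1.32-fold for Prrx1/Prrx2 to 3.44-fold for Tbx15/Tbx3.

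Several genes below 1 FPKM also differed. Pax1, known from the cells that build vertebrae and the shoulder blade, had 72, 116 and 129 counts in control and 223, 189 and 151 in ZM samples, and rose from 1.84 ± 0.230 to 3.67 ± 0.578 CPM (log2 fold change 0.99 ± 0.16, adjusted p = 8.3e-05). Its paralogue Pax9, known from teeth and palate, had 19, 26 and 38 counts and then 59, 37 and 38 (0.83 ± 0.29, adjusted p = 0.026). Leaving out control sample 1, control sample 2 or ZM sample 1 ended the Pax9 call (adjusted p from 0.055 to 0.12), as did DESeq2 (adjusted p = 0.053). Lhx9, known from the gonad and limb bud, had 32, 26 and 38 counts in control and 5, 8 and 6 in ZM samples. It fell from 0.589 ± 0.191 to 0.127 ± 0.0455 CPM (log2 fold change -2.19 ± 0.43, adjusted p = 5.5e-04), with no overlap between the groups. Both group means of Lhx9 (0.0608 and 0.0137 FPKM) were near the floor, and the filter can keep such a gene through its control counts alone.

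Hoxc13, known from hair and nails, was the Hox gene that passed, with 6, 18 and 29 counts in control and 32, 34 and 30 in ZM samples (log2 fold change 1.04 ± 0.38, adjusted p = 0.033). Leaving out 1 sample ended this call in each case but control sample 3 (adjusted p from 0.052 to 0.11), as did DESeq2 (adjusted p = 0.051). Of the other tested Hox genes, Hoxb4 was at 1.00, 1.12 and 1.14 CPM in control and 0.806, 0.396 and 0.924 CPM in ZM samples (-0.61 ± 0.28, adjusted p = 0.084), and passed without ZM sample 3 (adjusted p = 0.044). Hoxb9 and Hoxd8 had overlapping groups (adjusted p = 0.92 and adjusted p = 0.98).

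Pax5, the factor that fixes B cell identity, had 18, 22 and 15 counts in control and 0, 10 and 2 in ZM samples (log2 fold change -2.0 ± 0.72, adjusted p = 0.036). Both group means were near the floor. Leaving out 1 sample ended its call in each case but ZM sample 2 (adjusted p from 0.058 to 0.13). The log2 fold change was -1.35 without ZM sample 1 and -3.98 without ZM sample 2. Of B cell markers the surface proteins Cd79a, Cd79b and Ms4a1 were at or below 0.0706 FPKM in each group. Ebf1, which mesenchymal cells also use, was at 3.18 and 7.38 FPKM. Lhx8 and Barx1, tooth and jaw genes, were low and did not pass (adjusted p = 0.48 and adjusted p = 0.58). Lhx1, from the kidney and head organiser, was not tested, with 6, 8 and 1 counts in control and 0 in each ZM sample.

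Markers of other cell types moved between the same groups. All 6 macrophage markers fell, by 0.22 (Ptprc) to 1.10 (Itgam) on the log2 scale (median log2 fold change -0.50). All 5 osteoclast markers rose, with a median log2 fold change of 3.35. The collagen genes Col1a1 (-0.02 ± 0.04, adjusted p = 0.70) and Col1a2 (-0.08 ± 0.03, adjusted p = 0.085) of the matrix-forming cells did not pass. Of 7 tested osteoblast-lineage markers 3 rose and 1 fell. Alpl, the alkaline phosphatase of early osteoblasts, rose 11.9-fold, Sp7 1.81-fold and Runx2 1.22-fold. Spp1, a matrix protein also made by macrophages, fell from 15169 to 4853 CPM. The summed level of the 8 markers was 30188.1 to 31048.5 CPM in control and 19422.8 to 20412.6 CPM in ZM samples, a difference carried by Spp1. The muscle markers Acta1 (7.80-fold lower, adjusted p = 2.3e-13) and Des (1.37-fold lower, adjusted p = 0.037) fell, as did the epithelial marker Cdh1, with 120, 184 and 197 counts in control and 46, 26 and 36 in ZM samples (4.18-fold lower, adjusted p = 1.2e-07). The part of these shifts in the members' differences was not tested.

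Other patterning factors of skull and mesenchyme came from a list outside the rule. This list and those below were chosen with earlier results of these data known, so their shares are a description with no test. Of 29 tested 15 rose and 3 fell, or 51.7% and 10.3%, with a median log2 fold change of 0.48. All tested genes gave 22.8% and 22.4%, and those with a group mean of at least 1 FPKM gave 26.6% and 26.6%. The homeobox genes Dlx5 (0.80 ± 0.13) and Msx1 (0.74 ± 0.05) and the forkhead gene Foxc1 (0.73 ± 0.06), all known from skull development, rose most among those of at least 1 FPKM. The fall was led by the helix-loop-helix factor Twist2 (-1.17 ± 0.17), followed by Emx2 (-0.41 ± 0.12) and Tcf12 (-0.13 ± 0.04), the partner of Twist1. Of head factors on this list, En1 (10.9 and 18.6 FPKM) and Zic1 (8.47 and 12.9 FPKM) were expressed. Others were not, with 0 to 2 counts per library for Otx1 and Otx2, 0 to 18 for En2 and 2 to 19 for Gbx2. The trunk and tail genes Cdx1, Cdx2, Cdx4 and Tbxt are not among the 31401 genes.

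Among partners and inhibitors of the members 10 of 23 rose and 3 fell, with a median of 0.11. That is 56.5% called, where all tested genes gave 45.3% and those of at least 1 FPKM 53.2%. Eya2 (0.63 ± 0.06), which partners Six2, the corepressor Tle2 (0.58 ± 0.08) and the LIM protein Lmo4 (0.41 ± 0.05) rose most among those of at least 1 FPKM. The homeobox repressor Tgif1 (-0.70 ± 0.05), Lmo2 (-0.50 ± 0.05), also made by blood cells, and geminin, Gmnn (-0.25 ± 0.08), fell. Of 34 Polycomb and Trithorax genes, which keep Hox clusters silent or active, 18 rose and 2 fell, with a median of 0.21. The called share was 58.8%, against 53.2% at 1 FPKM or more, and the higher share 52.9% against 26.6%. Cbx7 (1.14 ± 0.11), Cbx6 (0.85 ± 0.05) and the histone demethylase Kdm6b (0.44 ± 0.06) rose most, and Phc2 (-0.30 ± 0.04) and Eed (-0.14 ± 0.05) fell.

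Retinoic acid, the vitamin A product that sets Hox and Meis levels in the embryo, has genes for its making, breakdown and binding, of which 14 were tested. Of these 7 rose and 2 fell, or 50% and 14.3%, with a median of 0.13. All tested genes gave 22.8% and 22.4%, and those with a group mean of at least 1 FPKM gave 26.6% and 26.6%. The degrading enzyme Cyp26b1 (2.04 ± 0.14), the synthesising enzyme Aldh1a1 (1.68 ± 0.04) and the reductase Dhrs3 (0.76 ± 0.04) rose most. The binding proteins Crabp1 (-3.14 ± 0.19) and Crabp2 (-0.43 ± 0.08) fell, with Crabp1 at 62.2 FPKM in control and 7.36 FPKM in ZM samples.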

How the data were processed

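The mRNA libraries of 6 samples were grouped by sample title. Per the submitters' processing notes, the tools were HISAT2 2.2.1, featureCounts 2.0.3 (Subread) and DESeq2, with mm10. For annotation, strand setting and multi-mapped reads the entry is: not given in the sources used here. Raw values were deposited as 1 table with, per the file headers, a count and an FPKM value per gene. Each deposited FPKM is the count over column total and gene length, and this length matched the GENCODE M21 exon length for 98.2% of genes found there. Of counts from 1 to 20, 60.0% to 66.0% were even, so small counts often move in steps of 2. A count of 0 allows up to 3 counts, a floor of 0.0429 to 0.0702 CPM for counting error alone.

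Genes passing filterByExpr (17533) entered edgeR 4.0.16 (R 4.3.3, TMM scaling, robust quasi-likelihood F test, Benjamini-Hochberg adjustment over all tested genes, threshold 0.05). The SE was taken as the absolute log2 fold change over the root of F. Pairs of libraries within a group differed beyond sampling noise (chi-square per degree of freedom 5.71 to 9.79). Alternatives used DESeq2 1.42.0, limma 3.58.1 and other scalings and filters. Levels between genes are compared in FPKM. Exon overlaps come from GENCODE M21 (GRCm38), and near-identical copies were sought with BLAST+ 2.17.0. Members, lists and pairs were chosen with earlier results of these data known. Values are printed for each expressed member that was called or among the 12 highest, and for list genes the 3 largest called rises and falls with a group mean of at least 1 FPKM. Other genes were chosen after their values were seen. The values of 4 members are not reported here, and counts over the set include them.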

Additional observations from a re-analysis of the deposited data

How the results depend on the processing

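Over 15 alternatives the 37 tested members gave 467 values on the side of the threshold of the first result, 34 that lost a call and 6 that gained one. No called direction turned, and 19 of the 467 values, all of uncalled members, changed sign. The number of genes called was 6813 to 7712 with 1 sample left out (7939 with all) and 3213 against a 1.2-fold change (glmTreat), where 8 members were higher and 2 lower. Alx1, Six5, Tbx15 and Tbx18 lost their calls only there (adjusted p = 0.087, 0.075, 0.062 and 0.13). With 1 sample left out 11 to 14 members were higher and 3 to 5 lower. Members called lower numbered 3 at a mean of at least 1 CPM and 2 by limma on log2(FPKM + 1) or log2(FPKM + 0.1), which test fewer genes. With a replicate block 7752 genes were called, with 13 members higher and 4 lower, and Pbx3 lost its call (adjusted p = 0.059). Same-numbered samples did not deviate together (correlations of -0.040, 0.058 and -0.015), so the numbers were not taken as pairs. By library size alone 62.2% of called genes were higher (50.4% with TMM), and 62.8% on FPKM, which shifts the median of all genes by 0.06 and 0.04. Depth limits the Hox, Pax and Lhx genes, of which 14 Hox genes had at most 10 counts in all.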
